A study of Homo sapiens with 6 samples.

Results

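The NF-kB system of HL60 cells was followed through 10 genes after akirin2 KO: the 5 Rel subunits NFKB1, NFKB2, REL, RELA and RELB, the 4 IkB genes NFKBIA, NFKBIB, NFKBIE and NFKBIZ, and TNFAIP3, which encodes A20. They were taken by symbol from a table of 17499 genes, each symbol matched 1 row, and all 10 were among the 17425 genes that had a mean of at least 10 normalised counts and were tested. HL60 is a long-established cell line from a human promyelocytic leukemia. The akirin2 KO cells (3 libraries, KO1 to KO3, labelled as an AKR2 knock down) had received a ribonucleoprotein of Cas9 and a synthetic guide RNA against akirin2, and the WT cells (3 libraries, WT1 to WT3) had received the SpCas9 nuclease with no guide. The KO cells were an edited pool that was not cloned, and the study reports a knockout in most but not all of it, so the pool may hold unedited cells. Both kinds of cells were cultured alike in RPMI medium with fetal bovine serum, with no stimulus in the labels. Akirin2 itself is a nuclear protein with no DNA-binding activity of its own that works with transcription factors, NF-kB among them.

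NF-kB is a family of dimeric transcription factors built from the Rel subunits. In the canonical pathway, dimers of RELA or REL with p50, the processed product of NFKB1, wait in the cytoplasm bound to IkB proteins until an IkB kinase marks the inhibitor for destruction. In the noncanonical pathway, the kinase NIK drives the processing of p100, the NFKB2 product, to p52, which pairs with RELB. Several genes of the system are textbook targets of NF-kB themselves, with products that restrain the pathway or prolong it. In myeloid cells NF-kB drives chemokine and cytokine genes.

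The sequences before 5 of the start sites are shown because the kappaB element, the site that Rel dimers bind, is the sequence feature known for this family, and because they set genes that changed by a large factor (NFKB2, NFKBIA, TNFAIP3) beside genes that changed little (NFKB1, NFKBIB). Each stretch is RefSeq sequence of GRCh38.p14, read 5′ to 3′ on the strand of the gene, and begins 150 bases before an annotated start. Capitals mark matches of the kappaB consensus on either strand. The NFKB2 stretch is chr10:102395555-102395693 (plus strand), in the first intron of longer NFKB2 transcripts, with its last base, also the last of the match, in the first exon of NFKB2-206. The NFKBIA stretch is chr14:35404750-35404899 (minus strand) and the TNFAIP3 stretch is chr6:137867109-137867213 (plus strand), of which the last 26 bases, with both matches, lie in the first exon of 1 TNFAIP3 transcript in GENCODE 29. The NFKB1 stretch is chr4:102501209-102501328 and the NFKBIB stretch is chr19:38899819-38899951, both on the plus strand and outside annotated exons of their genes.
NFKB2: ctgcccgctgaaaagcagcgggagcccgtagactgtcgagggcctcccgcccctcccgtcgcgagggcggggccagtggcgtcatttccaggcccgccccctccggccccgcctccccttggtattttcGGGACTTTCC
NFKBIA: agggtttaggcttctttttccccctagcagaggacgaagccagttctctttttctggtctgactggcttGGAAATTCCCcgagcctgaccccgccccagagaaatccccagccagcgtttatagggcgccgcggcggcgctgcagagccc
TNFAIP3: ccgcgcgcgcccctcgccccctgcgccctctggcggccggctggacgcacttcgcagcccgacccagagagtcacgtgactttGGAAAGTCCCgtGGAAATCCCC
NFKB1: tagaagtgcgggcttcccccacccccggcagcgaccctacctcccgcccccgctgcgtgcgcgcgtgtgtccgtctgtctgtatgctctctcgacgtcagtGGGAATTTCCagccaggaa
NFKBIB: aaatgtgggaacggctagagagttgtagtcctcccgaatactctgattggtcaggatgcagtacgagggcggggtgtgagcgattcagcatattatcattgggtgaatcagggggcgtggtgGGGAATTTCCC
The matches lay 21 to 12 bases before the start in NFKB2, 81 to 72 bases before it in NFKBIA, 67 to 58 and 55 to 46 bases before it in TNFAIP3, 49 to 40 bases before it in NFKB1 and 28 to 18 bases before it, as a pair of overlapping matches on opposite strands, in NFKBIB. RefSeq promoter windows, 250 bases before to 50 bases after a start, were at hand for 8 of the 10 genes (RELB and NFKBIE had none), 14 windows in all. The kappaB consensus was present in 9 of these 14 windows, against 3956 of all 35116 windows of the table (11.3%), and in 7 of the 8 genes, RELA being the exception, against 13.3% of 27305 genes. A looser motif, GGG and CC with any 5 bases between them, which contains every match of the consensus, was present in 14 of the 14 windows and in 58.7% of all windows. A match is a string of letters and not a site shown to be bound. Each stretch printed above comes from a window that holds a match, and other windows of NFKB1, NFKB2 and NFKBIB held none. The presence of matches before genes with large and with small changes thus follows from the choice of windows. Whether matches go with the size of the change was not tested.

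The deposited values are read counts scaled by 1 size factor per library, here called normalised counts. Reads counted in the deposited genes numbered 36096459 to 47607520 per KO library and 41419318 to 52244122 per WT library. AKIRIN2, the targeted gene, had 1613, 1731 and 1651 normalised counts in KO1 to KO3, against 2378, 2450 and 2420 in WT1 to WT3, a ratio of 0.689 (log2 fold change −0.54, SE 0.049, limma adjusted p = 1.3e-08). The KO libraries were thus all below the WT libraries, with AKIRIN2 RNA still present in each. WT1 stood apart from the other WT libraries in 56 genes, of which 44 were also highest in KO3 among the KO libraries, and none of the 10 NF-kB genes was among them. The study calls the 3 libraries of a group biological replicates, and whether they were separate cultures of the pool is not stated, so the p-values describe the spread among these libraries. In bulk RNA, fewer cells that express a gene and less RNA per cell cannot be told apart.

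All 10 NF-kB genes were lower in KO than in WT, and none was higher. Each passed the test of limma on log2(normalised count + 1) with an adjusted p under 0.05, and 3 of them, NFKB2, RELB and NFKBIA, had a log2 fold change below −2. Of all 17425 genes, 60.6% were called, 30.3% as lower and 30.3% as higher, and 2.14% were called lower with a log2 fold change below −2. In each of the 10 genes every KO library was below every WT library, which held for 32.5% of all genes (groups apart in either direction, 65.2%). The median log2 fold change was −1.05 over the 10 genes and −0.0066 over all genes. Without WT1 and KO3, 8 of the 10 were called lower, all but NFKB1 and REL, against 4587 of all 17425 genes in that fit. An exact permutation test of 3 against 3 libraries gave its smallest possible value, p = 0.10, for each of the 10.

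**Figure D1:**
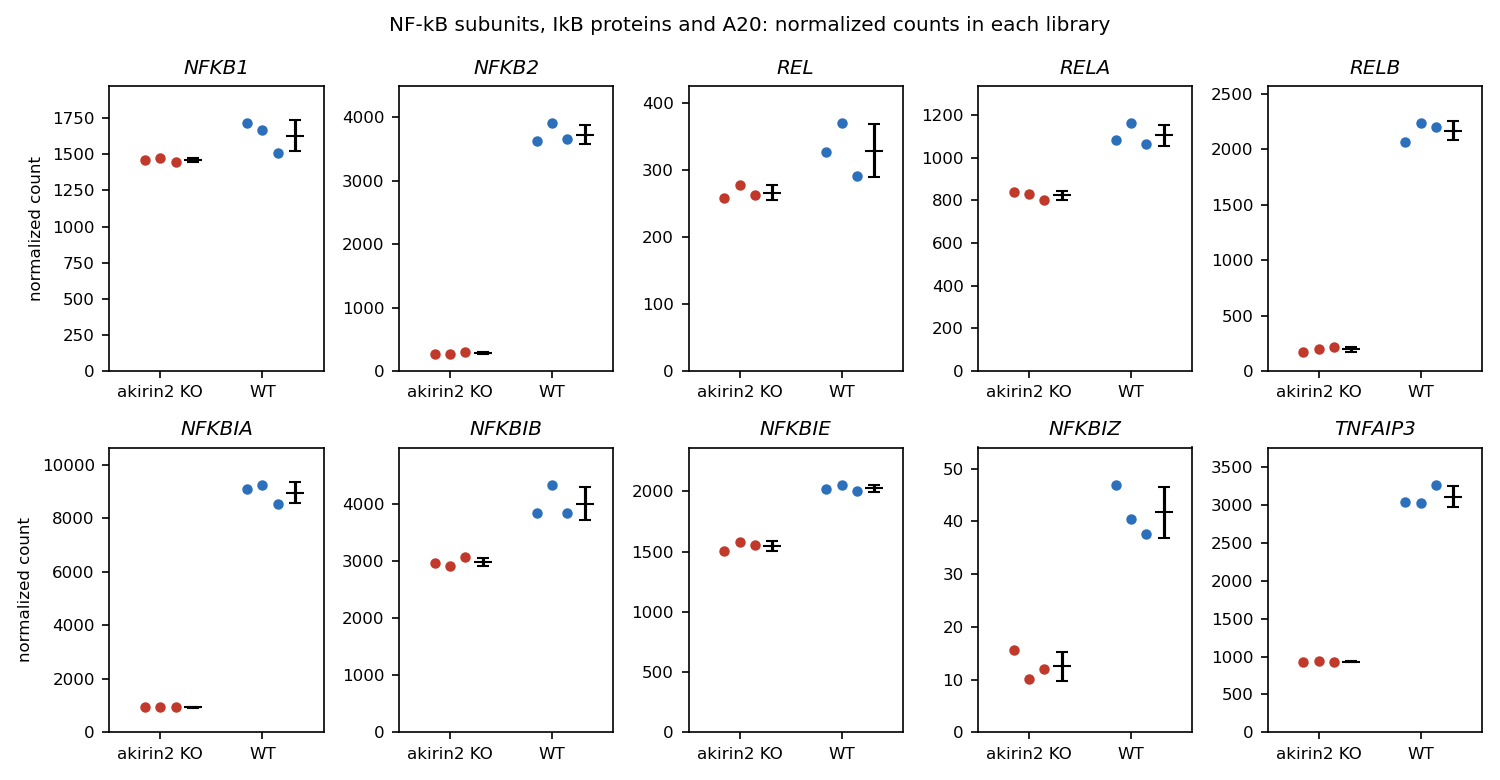
Normalised count (vertical axes, each from 0) of the 10 genes in each library. Points are the libraries of akirin2 KO (left) and WT (right), and the black marks are the group mean with its SD (n = 3). NFKB2, RELB and NFKBIA stood near the bottom of their axes in KO, while NFKB1 and REL had groups that nearly touched.

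The largest fall was in NFKB2, which encodes the p100 precursor and p52 (ENSG00000077150, chr10:102394110-102402529, plus strand). Gene positions are those of GENCODE 29 on GRCh38. NFKB2 had 272, 264 and 299 normalised counts in KO, against 3625, 3909 and 3656 in WT. The lowest WT library held 12.1 times the highest KO library. The group means were 278 ± 18.2 in KO and 3730 ± 156 in WT (SD, n = 3 each), 13.4-fold lower in KO, with a log2 fold change of −3.74 (SE 0.062, limma adjusted p = 1.5e-19). This placed NFKB2 at rank 59 of 17425 from the most negative change.

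RELB, the partner of p52 in the noncanonical dimer (ENSG00000104856, chr19:45001430-45038198, plus strand), was next among the 10 genes. It had 167, 202 and 211 normalised counts in KO, against 2068, 2236 and 2199 in WT. KO1 was the lowest of the 6 libraries, and the groups were far apart. The means were 193 ± 23.2 in KO and 2168 ± 88.2 in WT (SD, n = 3 each), 11.2-fold lower in KO, with a log2 fold change of −3.49 (SE 0.081, limma adjusted p = 2.6e-17, rank 72).

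The 3 subunits of the canonical pathway changed far less. RELA, the p65 subunit that carries a transactivation domain (ENSG00000173039, chr11:65653596-65663094, minus strand), had 837, 829 and 801 normalised counts in KO, against 1084, 1161 and 1065 in WT. The groups did not overlap, and the KO mean was 74.5% of the WT mean (log2 fold change −0.42, SE 0.059, limma adjusted p = 4.5e-06). REL, the c-Rel subunit best known in lymphoid cells (ENSG00000162924, chr2:60881521-60931610, plus strand), had 258, 278 and 263 normalised counts in KO, against 327, 370 and 290 in WT. Of the joined exons of REL, 13170 bases, 5702 are shared on the same strand with the noncoding gene AC010733.2, whose reads cannot be told apart from those of REL there, a limit on each REL value. The WT libraries were spread over a wider range than the KO libraries, and the lowest of them was 1.04 times the highest KO library (log2 fold change −0.30, SE 0.10, limma adjusted p = 0.015). Without KO1 or without WT2 the call of REL was lost (adjusted p = 0.053 and 0.097).

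NFKB1, which encodes the p105 precursor and p50 (ENSG00000109320, chr4:102501329-102617302, plus strand), had the smallest change of the 10. It had 1464, 1473 and 1448 normalised counts in KO, against 1716, 1668 and 1507 in WT. WT3 was 1.02 times the highest KO library, so that the groups were nearly in contact. The KO mean was 89.7% of the WT mean, with a log2 fold change of −0.16 (SE 0.056, limma adjusted p = 0.022, rank 6857). The call was lost when library totals were set equal (−0.098, adjusted p = 0.10) and when KO1, KO3, WT1 or WT2 was left out (highest adjusted p = 0.099).

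Among the inhibitors, NFKBIA fell most. NFKBIA encodes IkB-alpha, the inhibitor that is degraded and resynthesised in each round of canonical signalling (ENSG00000100906, chr14:35401511-35404749, minus strand). It had 934, 960 and 935 normalised counts in KO, against 9105, 9255 and 8515 in WT. The KO libraries lay close together, and the lowest WT library held 8.87 times the highest of them. The means were 943 ± 14.8 in KO and 8959 ± 391 in WT (SD, n = 3 each), with 10.5% of the WT level left in KO (log2 fold change −3.25, SE 0.047, limma adjusted p = 2.0e-20, rank 92).

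NFKBIB and NFKBIE encode IkB-beta and IkB-epsilon, the other classical cytoplasmic inhibitors. NFKBIB (ENSG00000104825, chr19:38899700-38908893, plus strand) had 2964, 2911 and 3062 normalised counts in KO, against 3833, 4332 and 3832 in WT. NFKBIE (ENSG00000146232, chr6:44258166-44265788, minus strand) had 1503, 1581 and 1555 in KO, against 2020, 2056 and 1999 in WT. In both genes the groups were apart by a modest margin, with KO means at 74.5% (NFKBIB) and 76.4% (NFKBIE) of the WT means. The log2 fold changes were −0.42 (SE 0.051, limma adjusted p = 7.4e-07) for NFKBIB and −0.39 (SE 0.049, limma adjusted p = 1.1e-06) for NFKBIE.

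NFKBIZ encodes IkB-zeta, a nuclear member of the family that acts as a coactivator of secondary response genes (ENSG00000144802, chr3:101827991-101861022, plus strand). It was the member with the fewest reads, 17, 10 and 10 in KO, against 50, 36 and 45 in WT. These gave 15.5, 10.0 and 12.0 normalised counts in KO, against 46.9, 40.5 and 37.6 in WT. The groups did not overlap despite the low counts, and the log2 fold change was −1.67, with the largest error of the 10 genes (SE 0.312, limma adjusted p = 0.00012). At this depth the pseudocount weighs on the value, which was −1.42 with a pseudocount of 5 and −1.71 with one of 0.5. Over all alternatives the value was −1.42 to −1.83, the last without KO1.

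TNFAIP3 encodes A20, a ubiquitin-editing enzyme that ends signalling from the TNF and Toll-like receptors (ENSG00000118503, chr6:137867188-137883312, plus strand). It had 930, 945 and 926 normalised counts in KO, against 3035, 3024 and 3267 in WT. The groups were well apart, with means of 934 ± 10.1 in KO and 3108 ± 137 in WT (SD, n = 3 each). TNFAIP3 was 3.33-fold lower in KO (log2 fold change −1.73, SE 0.051, limma adjusted p = 8.7e-16, rank 534). An antisense gene, AL357060.1, shares 95 exon bases with TNFAIP3 and was measured in the opposite direction, with 95.0, 89.4 and 84.0 normalised counts in KO, against 33.8, 55.1 and 66.1 in WT. Whether the counting used strand is not given in the sources used here, and reads of the shared bases cannot be told apart without it.

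**Figure D2:**
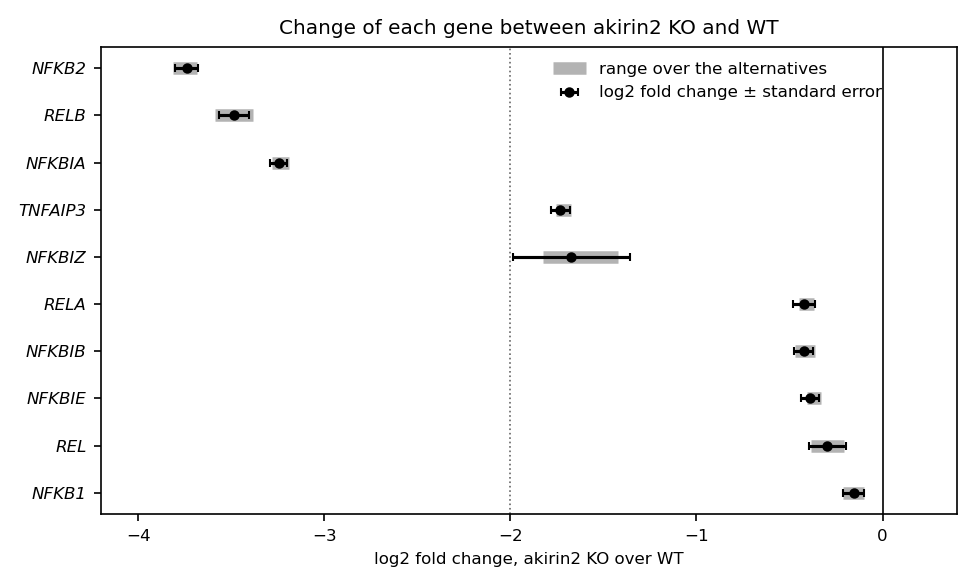
Log2 fold change of akirin2 KO over WT (horizontal axis) for each gene, with its standard error (n = 3 per group) as black bars and the range over the alternative settings as grey bars. The dotted line marks −2. NFKB2, RELB and NFKBIA lay below it, TNFAIP3 and NFKBIZ between −1.73 and −1.67, and the other 5 genes between −0.42 and −0.16.

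How unequal these changes were was examined within libraries, as the log2 difference between genes of a pair, with 1 added to each normalised count. But for this pseudocount, which weighs on low counts, the difference does not depend on how a library is scaled. The difference NFKB2 minus NFKB1 was −2.39 ± 0.105 in KO and 1.19 ± 0.104 in WT (SD, n = 3 each). The difference RELB minus RELA likewise was −2.09 ± 0.206 in KO and 0.97 ± 0.063 in WT. NFKBIA minus NFKBIB was −1.66 ± 0.056 in KO and 1.16 ± 0.077 in WT. NFKBIA minus RELA, the inhibitor against the subunit it holds, was 0.20 ± 0.035 in KO and 3.02 ± 0.042 in WT. The difference was thus lower in KO by −3.58, −3.06, −2.82 and −2.82 in these 4 pairs, in the order given, and in none of them did the libraries of the groups overlap.

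In the other pairs the groups differed by less. NFKB2 minus RELB was 0.53 ± 0.159 in KO and 0.78 ± 0.043 in WT, which differ by −0.25 with no overlap of the libraries. TNFAIP3 minus NFKBIA was −0.014 ± 0.0086 in KO and −1.53 ± 0.126 in WT, a gap of 1.51 between the groups. NFKBIZ minus NFKBIB was −7.80 ± 0.286 in KO and −6.55 ± 0.205 in WT. For REL minus RELA (−1.62 ± 0.065 in KO and −1.75 ± 0.113 in WT) and NFKBIE minus NFKBIB (−0.95 ± 0.057 in KO and −0.98 ± 0.083 in WT) the libraries of the groups overlapped. Exact two-sided permutation tests gave p = 0.20 for REL minus RELA and p = 0.60 for NFKBIE minus NFKBIB, and for the other 7 of the 9 pairs p = 0.10, the smallest that 3 against 3 allows (0.129 after Benjamini-Hochberg adjustment).

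Levels of different genes were compared as normalised counts per kilobase of joined exons. In KO the order was NFKBIB (1282 ± 33.0), NFKBIE (599 ± 15.3), NFKBIA (397 ± 6.23), NFKB1 (234 ± 2.04), TNFAIP3 (185 ± 2.01), RELA (150.5 ± 3.46), RELB (63.7 ± 7.65), NFKB2 (62.1 ± 4.06), REL (20.2 ± 0.809) and NFKBIZ (2.12 ± 0.471, SD, n = 3 each). RELB and NFKB2 had overlapping ranges there, and no other neighbours in that order did. In WT the order was NFKBIA (3775 ± 165), NFKBIB (1721 ± 124), NFKB2 (832 ± 34.8), NFKBIE (785 ± 11.1), RELB (714 ± 29.1), TNFAIP3 (615 ± 27.2), NFKB1 (261 ± 17.5), RELA (202 ± 9.31), REL (25.0 ± 3.02) and NFKBIZ (7.06 ± 0.807), with no overlap between neighbours. NFKB2 was thus at percentile 40.4 of 17347 genes by level in KO and at 87.6 in WT, RELB at 40.8 in KO and 85.7 in WT, and NFKBIA at 76.7 in KO and 97.7 in WT. With the length of 1 principal transcript per gene, NFKBIA stood before NFKBIE in KO, with overlapping ranges, RELA before TNFAIP3 in KO, and RELB before NFKBIE in WT.

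The makeup of the subunit pool differed between the groups. The summed level of the 5 Rel subunits was 530 ± 6.62 normalised counts per kilobase in KO and 2034 ± 71.3 in WT (SD, n = 3 each). NFKB2 and RELB together made up 23.7 ± 1.68% of it in KO and 76.0 ± 1.06% in WT. The share of NFKB1 was 44.1 ± 0.730% in KO and 12.8 ± 0.894% in WT, and that of RELA was 28.4 ± 0.941% in KO and 9.93 ± 0.152% in WT. For the 4 IkB genes the summed level was 2280 ± 32.1 in KO and 6288 ± 275 in WT. NFKBIA was 17.4 ± 0.399% of it in KO and 60.0 ± 0.945% in WT, while NFKBIB was 56.2 ± 0.931% in KO and 27.4 ± 1.05% in WT. The IkB sum over the Rel sum was 4.30 ± 0.041 in KO and 3.09 ± 0.074 in WT. All these sums and shares rest on the length of joined exons and would move with another length. With the length of 1 principal transcript, NFKBIB had 2570 per kilobase in KO and 3450 in WT, against 1282 and 1721. Shares were not computed with that length. These are RNA levels, and no protein was measured in these files.

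**Figure D3:**
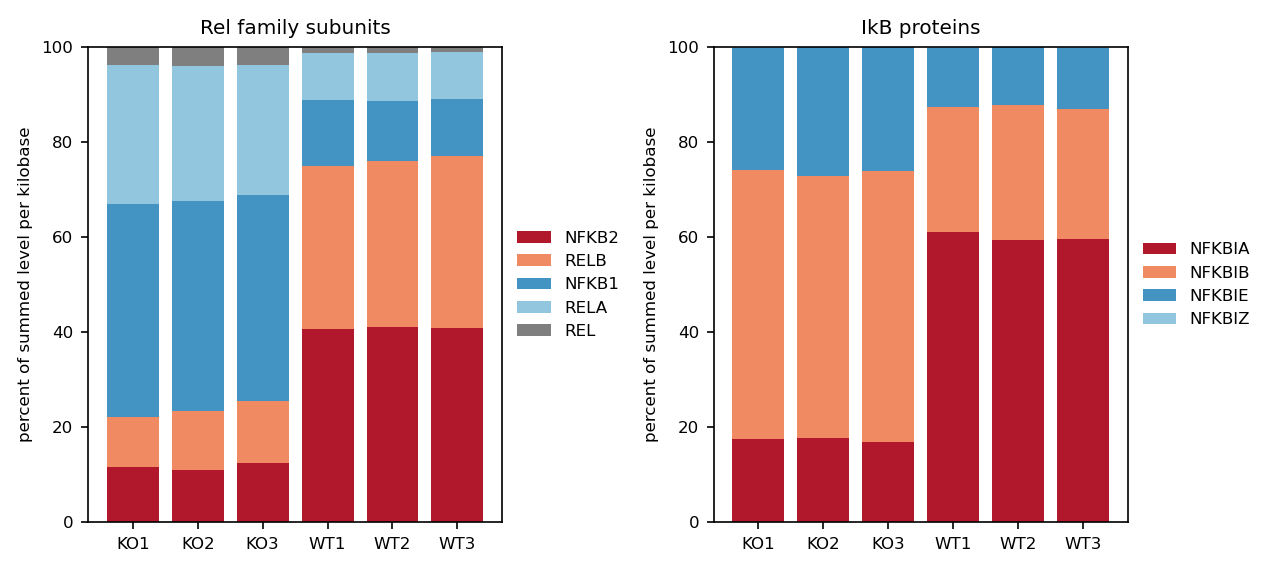
Share of each gene (vertical axis, percent of the summed level per kilobase) among the 5 Rel subunits and among the 4 IkB genes, as stacked bars for each library, KO to the left of WT. NFKB2 and RELB took 22.2 to 25.5% of the Rel sum in KO libraries and 75.0 to 77.1% in WT libraries, and NFKBIZ, under 0.13% in each library, is too thin to see.

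Other genes of the pathway were read from lists by role, as counts of genes called in the same fit, in which 30.3% of all genes were lower and 30.3% higher. Of the 9 other IkB family genes and nuclear regulators, 7 were lower and 2 higher, with a median log2 fold change of −0.25. The list holds AKIRIN2, the targeted gene (−0.54), which is among the 7 lower genes and enters the median. BCL3, a nuclear IkB protein that binds p50 and p52 homodimers, had 274 ± 26.0 normalised counts in KO and 2503 ± 199 in WT (log2 fold change −3.19, SE 0.076, limma adjusted p = 3.7e-17). NFKBID, the nuclear IkBNS, had 884 ± 7.17 in KO and 2673 ± 58.2 in WT (log2 fold change −1.60). NFKBIL1, an IkB-like gene, also fell (log2 fold change −1.48). AKIRIN1, the paralog of AKIRIN2, had 2277 ± 137 in KO and 2616 ± 152 in WT (log2 fold change −0.20, adjusted p = 0.0040). The genes of the list that were higher were COMMD1, which promotes the degradation of RELA (0.71), and NKRF, an NF-kB repressing factor (0.37).

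The lists of enzymes that act on IkB proteins, and of their partners, had genes called in both directions, as did all genes tested. With so few genes a list the counts show nothing particular to them. Of 6 genes for IkB kinases and their partners, MAP3K14 and IKBKG among them, 3 were lower, 2 were higher and 1 did not pass the test. With equal library totals only 1 was lower. MAP3K14, which encodes NIK, fell (log2 fold change −0.56, SE 0.126) and TBK1, a noncanonical IkB kinase, rose (0.44, SE 0.053), while IKBKB, the catalytic subunit of the canonical kinase, did not pass the test (−0.087, adjusted p = 0.093). Of the 9 genes for IkB ubiquitination and the processing of p105 and p100, 3 were lower, 4 higher and 2 not called, and 1 was lower with equal library totals or without WT1 and KO3. SKP1 (0.64) and RBX1 (0.31), subunits of the ligase that recognises phosphorylated IkB, and UBE2D1 (0.37), a ubiquitin-conjugating enzyme, were higher, and UBE2D3 was not called (−0.072).

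Of the A20 partners and other deubiquitinases, 8 of 9 genes were tested, and 4 were lower, 1 higher and 3 not called. CYLD, a deubiquitinase that like A20 restrains the pathway, fell with a log2 fold change of −1.43 (SE 0.051), and TNIP1, an A20-binding protein, with one of −0.87 (SE 0.052). TAX1BP1, another A20 adaptor, rose (0.26). Among 13 tested receptor adaptors of a list of 14, 5 were lower, 2 higher and 6 not called, near the shares of all genes (30.3% lower, 60.6% called in either direction), with a median of −0.041. MYD88, the adaptor of the Toll-like receptors, fell (−0.68, SE 0.071), as did TRAF3 (−0.34), an adaptor that holds NIK in check. IRAK1, the kinase that follows MYD88, rose (0.26), and MAP3K7, which encodes TAK1, was not called (0.021).

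Genes commonly listed as NF-kB targets, with the 10 genes above left out, were mostly lower. Of 36 listed, 31 were tested, of which 24 were lower, 2 higher and 5 not called, with a median log2 fold change of −1.33, and 9 lay below −2. Over all genes 30.3% were lower, 30.3% higher and 2.14% lower with a value below −2. Without WT1 and KO3, 23 were lower and 2 higher, against 4587 lower and 4675 higher of all genes in that fit. The chemokine gene CCL4 had 13.5 ± 6.0 normalised counts in KO and 3209 ± 211 in WT (log2 fold change −7.87, SE 0.190), and CCL2, the monocyte attractant, had 108 ± 3.25 in KO and 5209 ± 380 in WT (−5.58, SE 0.068). CXCL8, which encodes interleukin-8, had 963 ± 6.28 in KO and 13109 ± 815 in WT (−3.76, SE 0.049), and TNFAIP2, a gene first found as induced by TNF, had 1732 ± 25.1 in KO and 9458 ± 440 in WT (−2.45, SE 0.046). All 4 passed the limma test with adjusted p-values of 4.3e-17 or less for CCL4, CCL2 and CXCL8 and 9.4e-19 for TNFAIP2. The targets that were higher were SOD2, the mitochondrial superoxide dismutase (0.25), and TNFAIP8, an apoptosis regulator (0.27).

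**Figure D4:**
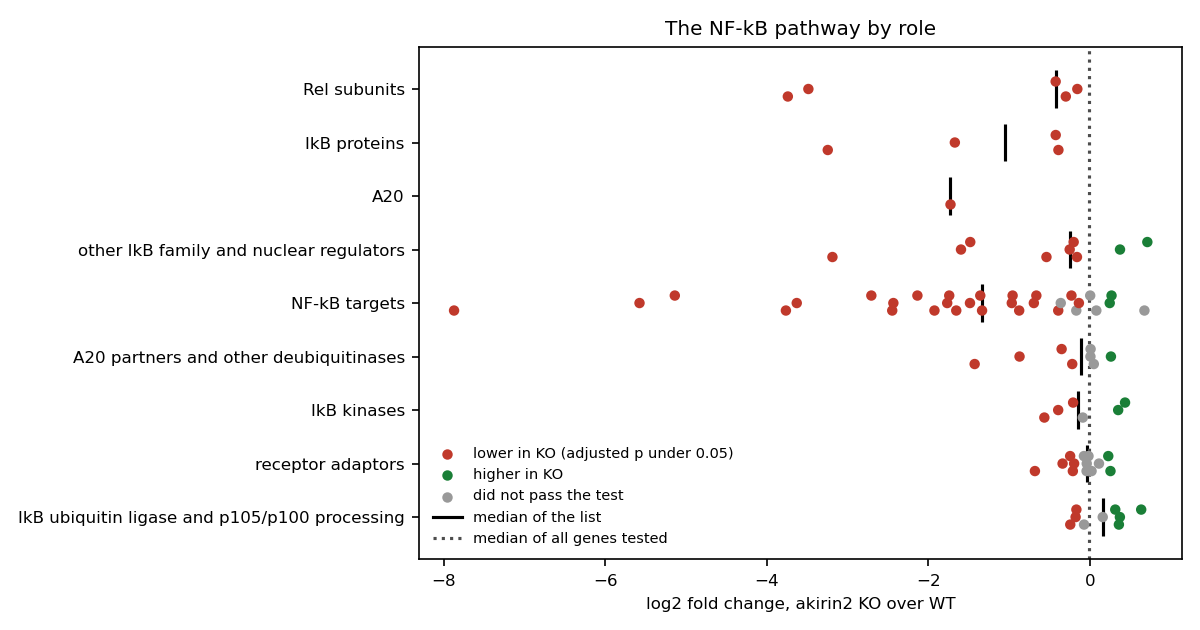
Log2 fold change of akirin2 KO over WT (horizontal axis) for each tested gene of the lists, by role. Points are genes, coloured by whether they were lower in KO, higher in KO or not called, black bars are list medians, and the dotted line is the median of all genes tested (−0.0066). The list of targets reached furthest to the left, with a median of −1.33, while the kinases, adaptors and ligase genes lay close to 0. AKIRIN2, the targeted gene, is a point of the list of other IkB family genes and nuclear regulators.

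The 3 genes whose pattern was most like that of NFKB2, by the root mean square difference of their centred log2 values over the 6 libraries, were IL1RN (0.071, log2 fold change −3.77), CXCL8 (0.095, −3.76) and FADS1 (0.103, −3.79). IL1RN encodes the interleukin-1 receptor antagonist and had 25.6, 26.1 and 27.6 normalised counts in KO, against 379, 359 and 382 in WT. With 6 libraries in 2 groups, this likeness rests mostly on the size of the difference between the groups.

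Markers of cell type moved between the groups as well. The summed level of 7 promyelocyte genes was 1024230 to 1059590 normalised counts in KO and 350667 to 370726 in WT, with 6 of the 7 called higher. MPO was the largest part of this sum, with 532204 to 542897 in KO and 276168 to 293307 in WT. The summed level of 8 late neutrophil genes was 12481 to 13015 in KO and 12922 to 13979 in WT, with 6 higher and 2 lower. Most of this late neutrophil sum was 1 of the genes called lower, CSF3R, with 10156 to 10704 in KO and 11662 to 12775 in WT. Of 12 monocyte and macrophage genes 10 were tested, with 4 lower, 3 higher and 3 not called, and their sum was 45408 to 46304 in KO and 48334 to 57096 in WT. Most of this sum was LYZ, called higher (log2 fold change 1.65), and S100A8 (−0.77) and S100A9 (−0.90), both called lower, so the sum hides changes in both directions. The fibroblast and epithelial list summed to 398 to 903 in KO and 368 to 5619 in WT, the last in WT1, and none of its 7 tested genes was called. Of the other lists, 1 of 7 T and NK lymphocyte genes and 2 of 8 erythroid and megakaryocyte genes were measured. The T cell gene among them, CD3E, had 10.8 to 19.1 normalised counts in KO and 99.5 to 148 in WT and was called lower. The B lymphocyte gene CD79A had 217 to 237 in KO and 125 to 151 in WT and was called higher (log2 fold change 0.69). The megakaryocyte genes ITGA2B and GP9 summed to 262 to 307 in KO and 55.4 to 70.3 in WT, with ITGA2B called higher (2.70) and GP9 lower (−2.43). The part of these shifts in the levels of the NF-kB genes was not tested.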

How the data were processed

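RNA from akirin2 KO and from WT HL60 cells was sequenced in 3 libraries per group. Trimmomatic 0.36, Subread 1.5.2, featureCounts and DESeq2, and GRCh38 as the build, are listed in the submitters' processing notes without their roles. Neither the aligner nor the annotation is given in the sources used here. The deposited signal values are read counts that the authors scaled by 1 size factor per library, and 100% of them were whole multiples of 1 read (tolerance 0.01). The authors' table also holds log2 fold changes and p-values of their own comparison, which were not used. Of its 17499 genes, 59 carry no name and 15 names belong to several genes. Coordinates and lengths came from GENCODE release 29, to which 17420 genes (99.55%) were matched by identifier.

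Groups were compared on log2(normalised count + 1) with limma 3.58.1 (lmFit, eBayes with a trend) under R 4.3.3. The tests were two-sided, and p-values were adjusted by Benjamini-Hochberg across 17425 genes, those whose mean was at least 10. Low genes change by more than this scale shows. The steps were tested on simulated data. Alternatives were pseudocounts of 0.5 and 5, no minimum mean and one of 50, library totals made equal, TMM scaling, DESeq2 1.42.0 and edgeR 4.0.16 on the recovered reads, limma with no variance trend, an ordinary linear model of unlogged values, a replicate block, an adjusted p under 0.01, removal of a length trend, and each library, or WT1 and KO3 together, left out. For the pathway lists, TMM scaling and the fit without WT1 and KO3 were added after seeing the data. Kilobase levels used the length of all exons of a gene joined. The kappaB consensus was searched on both strands. Python 3.11.15 with pandas 2.3.3, numpy 2.4.6 and matplotlib 3.10.9 was used.

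The 10 genes and all lists were chosen with earlier results of these data known. Named besides them were AKIRIN2, AKIRIN1, up to 4 genes per list (by size of change among called genes, 2, and by highest mean count, 2), and the 3 genes most like NFKB2. COMMD1, NKRF, SOD2, TNFAIP8, the overlapping genes AL357060.1 and AC010733.2 and the measured lymphocyte and megakaryocyte markers CD3E, CD79A, ITGA2B and GP9 were named after their values were seen. So were the late neutrophil marker CSF3R, the promyelocyte marker MPO and the monocyte and macrophage markers LYZ, S100A8 and S100A9.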

Additional observations from a re-analysis of the deposited data

How the results depend on the processing

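The 10 genes stayed lower in KO under each alternative that could be run, and NFKB2, RELB and NFKBIA, but no other of the 10, stayed below −2. Of 199 values over genes and alternatives, 185 kept their call and 14 lost it, all in NFKB1 and REL. NFKB1 lost its call with equal library totals (−0.098), a variance without a trend (−0.16), the ordinary linear model (−0.16), an adjusted p under 0.01 (−0.16) and without WT1 and KO3 (−0.11), and its range with each library left out was −0.21 to −0.12. REL lost its call with the ordinary linear model (−0.30), an adjusted p under 0.01 (−0.30) and without WT1 and KO3 (−0.29), and its range with each library left out was −0.38 to −0.21. The cause was not tested. NFKBIZ, with 37 reads in KO and 131 in WT, was not tested with a minimum mean of 50, which also left 227 genes lower by more than 2, against 373, because fewer genes were tested. NFKBIE minus NFKBIB, KO minus WT, was 0.033, and was −0.015 to 0.061 with each library left out, the lowest value without WT2. Equal library totals gave 4638 lower and 5915 higher genes, against 5275 and 5277, and shifted the median of all genes to 0.050. Same-numbered libraries did not deviate together (correlations −0.073, 0.052 and −0.075), so the numbers were not taken as pairs. With the replicate block 10394 genes were called, against 10552, and the log2 fold change of NFKB1 was −0.16 (limma adjusted p = 0.029), with no call changed among the 10 genes.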
